A study of Homo sapiens with 4 samples.

Results

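Aminoacyl-tRNA synthetases join each amino acid to its tRNA, and cytosolic protein synthesis and protein synthesis inside mitochondria draw on largely separate sets of these enzymes, all of them encoded in the nucleus. Several cytosolic enzymes are held together in the multi-tRNA synthetase complex, while others act alone. When tRNAs are not charged or the endoplasmic reticulum is stressed, phosphorylation of eIF2alpha raises the translation of the transcription factor ATF4, and genes of cytosolic synthetases are among the known targets of ATF4.

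The synthetase genes were taken by name from the array, under their older symbols or the current ones that end in 1. The rule uses the name alone, but the family was picked for description with earlier results of these data known. Of 36 genes listed, 35 had a probe, 1 each, among the 14297 gene probes, and all 35 passed the filter on dim probes that left 8852 probes to be tested. They comprised 20 cytosolic and 15 mitochondrial enzymes. No probe carried the name CARS2, the gene of mitochondrial cysteinyl-tRNA synthetase. GARS and KARS, counted here as cytosolic, are known to encode the mitochondrial enzymes for glycine and lysine as well.

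RNA was compared between K562 cells, an established human erythroleukemia line, treated with AC-1041 for 4 h and control K562 cells held for the same 4 h. AC-1041 is a fluorescent phthalimide analog of thalidomide. The labels call the control untreated and give no dose, whereas the methods name a DMSO control and state a concentration of AC-1041. Every one of the 4 Agilent arrays received both RNAs in different colours. Arrays 1 and 2 had the treated RNA in Cy5, and the dyes were swapped on arrays 3 and 4. The value of a gene on an array is its log2 ratio, treated over control, so that 1 stands for a doubling. The methods describe treated and control samples collected in quadruplicate and a quadruplicate array study with swapped dyes. They do not say which sample went on which array or whether the samples came from separate cultures, so p-values may measure only technical spread between arrays.

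The arrays differed by dye orientation. Across probes their log2 ratios correlated at 0.81 and 0.94 within an orientation but from -0.29 to -0.12 between orientations, and negative control spots varied more on arrays 1 and 2 (SD 226 to 308 intensity units) than on arrays 3 and 4 (27.8 to 40.5). The quality of an array and its orientation cannot be told apart. The ratios were fitted in limma with a treatment and a dye term, so standard errors and adjusted p-values rest on the spread within an orientation, while each SD below is over all arrays measured. The dye term itself passed for 18 of the 35 synthetase genes and 58.2% of all probes. Of 17 K562 markers listed, HBG2 had no probe, and ABL1, well above background on 0 arrays, was too dim to be tested. Of the 15 tested, 12 stood well above background on every array in both colours. Of 12 markers of other cells, MS4A1, ALB, COL1A1, COL1A2, KRT5 and GFAP were well above background on 0 arrays, while EPCAM, for example, was so on all 4.

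After AC-1041, transcripts of 10 of the 20 cytosolic synthetases rose (adjusted p under 0.05, limma with Benjamini-Hochberg adjustment over all 8852 probes) and 0 fell. Over all probes tested, 24.3% were higher and 13% lower by the same rule, so the 50% of cytosolic genes that rose was above the share of all probes, and 0 of them fell. The median log2 ratio was 0.20 for cytosolic genes, 0.01 for mitochondrial genes and 0.02 for all probes. With median centring in place of loess these medians were 0.11, 0.02 and 0.05, and the cytosolic median was 0.13 without array 2. Of the 15 mitochondrial genes, 2 rose and 2 fell, or 13.3% each way. A log2 ratio above 0 on all 4 arrays, which needs no model of the dye, was seen for 7 cytosolic and 0 mitochondrial genes, where 15.1% of all probes had one. Without the dye term, 0 of the 35 genes passed in limma, and 0.582% of all probes were called higher. An unadjusted limma p under 0.05 was seen for 7 of the 35 genes, of which 6 were cytosolic. The same held for 1255 of the 8852 probes. With the dye term, 3 cytosolic genes were higher without array 4, 5 without array 3, 8 without array 2 and 9 without array 1. Among all probes, 1008 were higher without array 4, 1994 of 8005 without array 2 and 2590 of 8812 without array 1. With all 4 arrays, 2155 of the 8852 probes were higher. The cytosolic count was thus below 10 in each case, whereas the count of all probes was lower without array 4 but higher without array 1. Without array 2 it was lower among fewer probes tested. Of the mitochondrial genes, 0 were higher without array 3 or without array 4. In bulk RNA, a change in all cells and a change in some of them cannot be told apart.

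**Figure D1:**
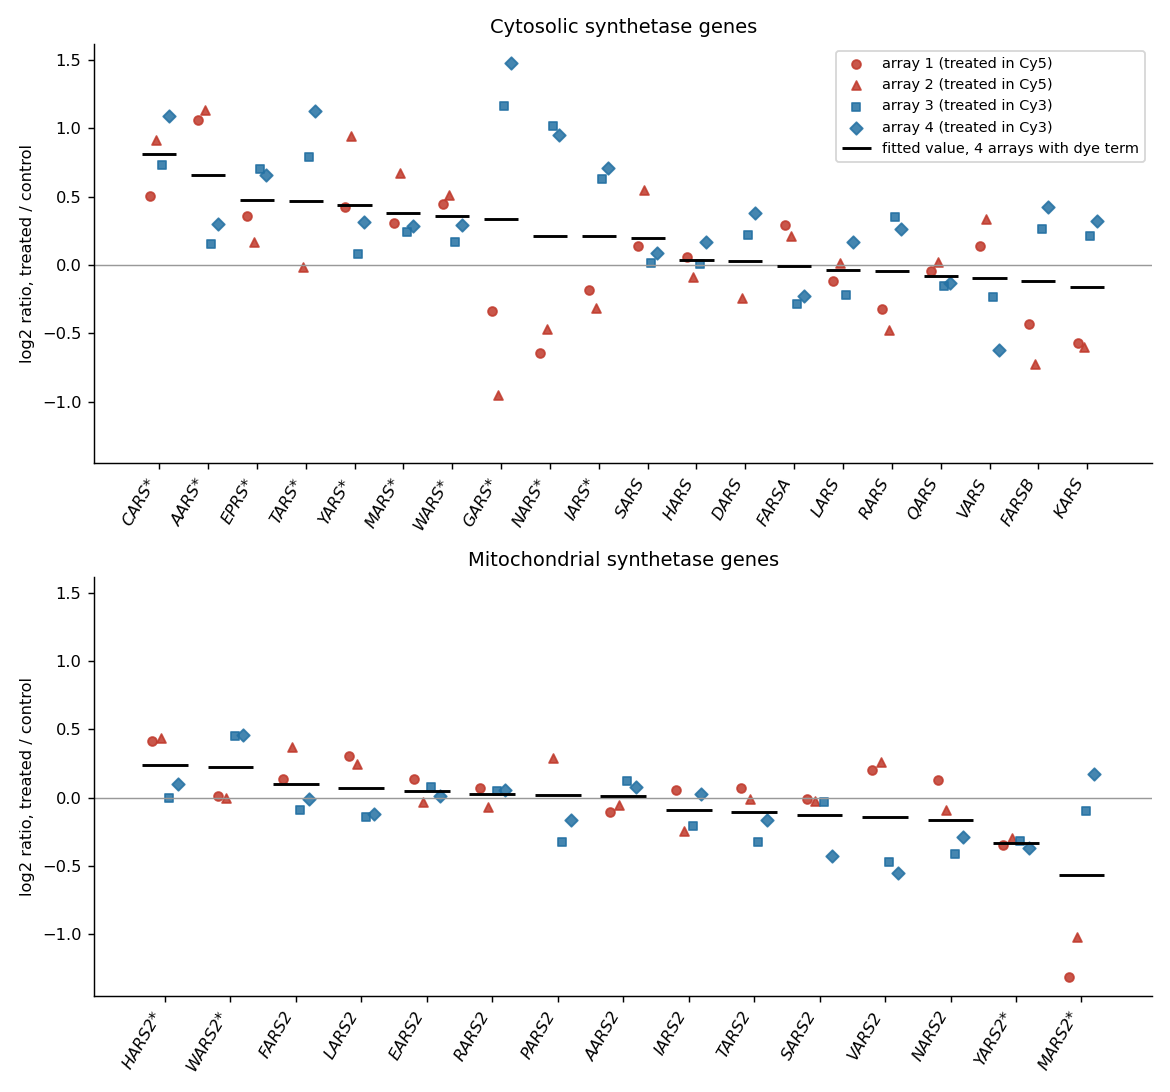
Log2 ratio of treated to control K562 cells (vertical axis) for each of the 20 cytosolic (top) and 15 mitochondrial (bottom) synthetase genes, with 1 point per array, red where the treated RNA carried Cy5 and blue where it carried Cy3. Black bars are the fitted values, and asterisks mark an adjusted p under 0.05. CARS, AARS, EPRS, YARS, MARS, WARS and SARS lie above 0 on all 4 arrays, and GARS, NARS and IARS lie below 0 on the red arrays and above 0 on the blue ones.

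**Figure D2:**
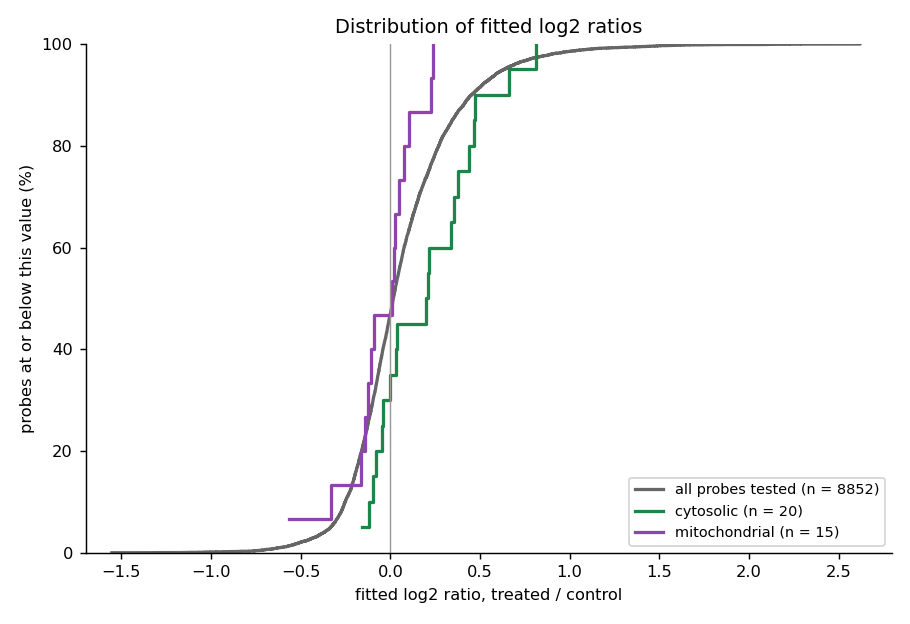
Share of genes or probes (vertical axis, %) at or below each fitted log2 ratio of treated to control cells (horizontal axis) for the cytosolic genes, the mitochondrial genes and all 8852 probes tested. The cytosolic curve lies to the right of the others around its median of 0.20, and the mitochondrial median of 0.01 is close to the 0.02 of all probes.

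CARS, which charges tRNA with cysteine, had the largest value of the family. Its log2 ratio was 0.50, 0.92, 0.73 and 1.09 on arrays 1 to 4, all 4 arrays being clearly above 0. The fitted value was 0.81 ± 0.25 (SD, n = 4 arrays), a 1.75-fold higher level, with a limma adjusted p of 0.00033. It also had the lowest adjusted p of the family without the dye term, 0.072 in limma.

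AARS charges tRNA with alanine. It measured 1.06, 1.14, 0.15 and 0.30, higher on the arrays with the treated RNA in Cy5 than on the others, yet above 0 on all of them. The fitted log2 ratio was 0.66 ± 0.51 (SD, n = 4), or 1.58-fold, with a limma adjusted p of 0.00019. EPRS, a bifunctional enzyme for glutamate and proline within the complex, showed the opposite tilt, with 0.36, 0.17, 0.70 and 0.66. It fitted at 0.47 ± 0.25 (SD, n = 4), or 1.39-fold, and its limma adjusted p was 0.0010. CARS, AARS and EPRS passed whichever array was left out.

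YARS, WARS and MARS, for tyrosine, tryptophan and methionine, were also above 0 on every array. YARS measured 0.42, 0.94, 0.08 and 0.31 and fitted at 0.44 ± 0.36 (SD, n = 4; limma adjusted p = 0.0074). WARS measured 0.44, 0.51, 0.17 and 0.30, which gave 0.35 ± 0.15 (SD, n = 4; limma adjusted p = 0.0037). MARS, like EPRS a subunit of the complex, measured 0.31, 0.67, 0.24 and 0.28 and fitted at 0.38 ± 0.20 (SD, n = 4; limma adjusted p = 0.0062), array 2 standing above the other 3. SARS, for serine, was above 0 on all 4 arrays at 0.14, 0.55, 0.02 and 0.09 but did not pass, with 0.20 ± 0.24 (SD, n = 4; limma adjusted p = 0.088). The adjusted p of YARS rose to 0.082 when limma was run on Feature Extraction's processed signals. Without array 4, the limma adjusted p was 0.090 for YARS, 0.066 for WARS and 0.071 for MARS, and without array 3 it was 0.051 for MARS.

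TARS, GARS, NARS and IARS, for threonine, glycine, asparagine and isoleucine, passed on a mean over orientations that did not agree in size or sign. TARS had no usable spot on array 1 and measured -0.02, 0.79 and 1.12 on arrays 2 to 4, so its fitted 0.47 (limma adjusted p = 0.0090) sets a single Cy5 array against 2 Cy3 arrays. GARS measured -0.34, -0.95, 1.16 and 1.48, with a fitted 0.34 ± 1.17 (SD, n = 4; limma adjusted p = 0.036). Both arrays with treated RNA in Cy5 were below 0 and both others were above it, a spread several times the fitted value. NARS measured -0.64, -0.47, 1.01 and 0.95 and fitted at 0.21 ± 0.89 (SD, n = 4; limma adjusted p = 0.037). IARS, a subunit of the complex, measured -0.18, -0.32, 0.63 and 0.71 and fitted at 0.21 ± 0.53 (SD, n = 4; limma adjusted p = 0.037). Orientations on opposite sides of 0 were seen for 19 of the 35 synthetase genes and 61.7% of all probes. With outlier spots kept, GARS, NARS and IARS did not pass (limma adjusted p = 0.057, 0.078 and 0.088). None of these 3 passed without array 3 or without array 4. Without array 1, GARS and IARS did not pass (limma adjusted p = 0.072 and 0.068), and without array 2 NARS did not (0.088). The fitted value of GARS ran from 0.18 without array 1 to 0.49 without array 2. In addition, GARS and IARS did not pass on processed signals, and NARS and IARS did not pass with median centring, where IARS was at 0.08.

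**Figure D3:**
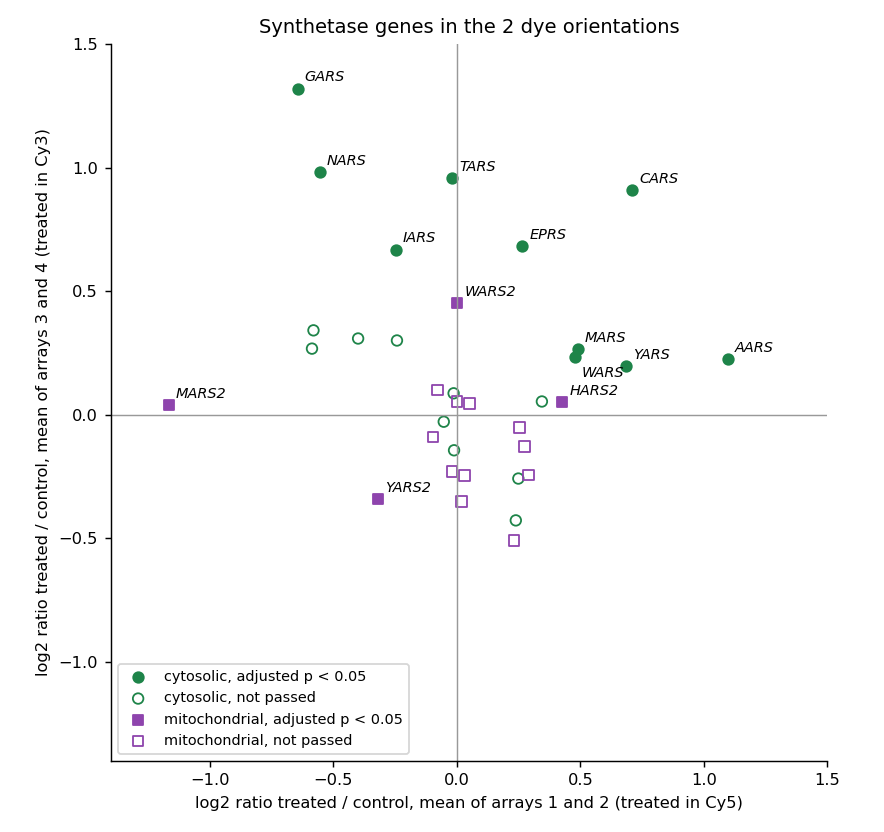
Mean log2 ratio of treated to control cells with the treated RNA in Cy5 (arrays 1 and 2, horizontal axis) and in Cy3 (arrays 3 and 4, vertical axis) for each synthetase gene, with filled symbols for an adjusted p under 0.05 and named genes. CARS, at 0.71 and 0.91, lies far above 0 on both axes, AARS leans to Cy5 with 0.23 on the Cy3 arrays, GARS at -0.64 and 1.32 changes sign, and YARS2 at -0.32 and -0.34 is below 0 on both.

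The other 9 cytosolic genes, HARS, DARS, FARSA, LARS, RARS, QARS, VARS, FARSB and KARS, did not pass, and their fitted log2 ratios ran from 0.04 for HARS to -0.16 for KARS. KARS, for lysine, measured -0.57, -0.60, 0.21 and 0.32 (limma adjusted p = 0.087, 95% interval of the fitted value -0.31 to -0.01). Both genes of phenylalanyl-tRNA synthetase, FARSA and FARSB, which encode its alpha and beta subunits, were in this set, at -0.00 and -0.12. An adjusted p that misses the threshold does not show that a level was unaltered, and for DARS the 95% interval ran from -0.17 to 0.23.

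By assembly, 3 of the 8 subunits of the multi-tRNA synthetase complex rose (EPRS, MARS and IARS) with a median log2 ratio of -0.01, and 7 of the 12 other cytosolic genes rose with a median of 0.28. By catalytic fold, 6 of 10 class I genes and 4 of 10 class II genes rose, with medians of 0.28 and 0.12. EPRS, the enzyme for both glutamate and proline, was counted in class I only. Against the 24.3% of all probes that rose, these shares were 37.5% for the complex, 58.3% for the other cytosolic genes, 60% for class I and 40% for class II. The differences were not tested. The median of the 8 complex subunits was -0.15 on the Cy5 arrays and 0.28 on the Cy3 arrays, against 0.24 and 0.23 for the other 12. Over all 20 cytosolic genes the medians were -0.01 and 0.27, and over the mitochondrial genes 0.02 and -0.09. By array, the cytosolic medians were 0.10, 0.02, 0.22 and 0.30 and the mitochondrial ones 0.07, -0.03, -0.09 and -0.01, so the cytosolic median was the higher on each array, by less on the Cy5 arrays. Its dependence on orientation was not tested.

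Of the mitochondrial enzymes, HARS2 and WARS2 rose, and YARS2 and MARS2 fell. HARS2, for histidine, measured 0.42, 0.44, -0.00 and 0.10, above 0 mainly where the treated RNA carried Cy5, and fitted at 0.24 ± 0.22 (SD, n = 4; limma adjusted p = 0.021). WARS2, for tryptophan, showed the reverse with 0.01, -0.00, 0.45 and 0.46, and fitted at 0.23 ± 0.26 (SD, n = 4; limma adjusted p = 0.023). Neither passed when array 3 or array 4 was left out, and HARS2 did not on processed signals, at 0.11 (limma adjusted p = 0.37). HARS, the cytosolic enzyme for histidine, measured 0.06, -0.09, 0.01 and 0.17 around 0, although the RefSeq starts of HARS and HARS2 lie 85 bases apart on opposite strands of chromosome 5.

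YARS2, for tyrosine in mitochondria, was the most even member of the family. It measured -0.34, -0.29, -0.32 and -0.37, a range far narrower than its distance from 0, and fell by 0.33 on the log2 scale (SD 0.032, n = 4; limma adjusted p = 0.0046), or 1.26-fold. Without array 4 its limma adjusted p was 0.070. SARS2 was the other mitochondrial gene below 0 on all 4 arrays, at -0.01, -0.03, -0.03 and -0.43, where 8.29% of all probes were; it did not pass (limma adjusted p = 0.25). MARS2, for methionine, measured -1.31, -1.02, -0.09 and 0.17 and fitted at -0.56 ± 0.71 (SD, n = 4; limma adjusted p = 0.00097). Its low values were those of the Cy5 arrays, and its spot was well above background in the treated channel on 2 arrays and in the control channel on 3. On processed signals its log2 ratio was -0.86 with a wider standard error of 0.43, and its limma adjusted p was 0.19. The other 11 mitochondrial genes, FARS2, LARS2, EARS2, RARS2, PARS2, AARS2, IARS2, TARS2, SARS2, VARS2 and NARS2, did not pass and ran from 0.10 for FARS2 to -0.17 for NARS2. NARS2, for asparagine, measured 0.13, -0.09, -0.41 and -0.29. It passed as lower on processed signals, at -0.26 (limma adjusted p = 0.036), and without array 1 (0.023).

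Setting the 2 enzymes of an amino acid against each other on the same array removes a shift shared by all probes of an array, though not one that varies with intensity. In 14 such pairs, with FARSA and FARSB each set against FARS2, the cytosolic gene had the higher log2 ratio in 9 and the lower in 5. The difference was above 0 on all 4 arrays for methionine, tyrosine, alanine and serine, and below 0 on all 4 for 0 pairs. These counts moved with the scaling. With median centring, methionine and alanine were above 0 on 3 of 4 arrays and serine on 2, isoleucine and tyrosine were above 0 on all 4, and HARS minus HARS2 and FARSB minus FARS2 were above 0 on 0. On processed signals the pairs for methionine, tyrosine, alanine and serine were above 0 on all 4 arrays, and FARSA minus FARS2 on 0. MARS minus MARS2 was 1.62, 1.69, 0.34 and 0.11, with a mean of 0.94 ± 0.83 (SD, n = 4). YARS minus YARS2 was 0.77, 1.23, 0.40 and 0.68, with a mean of 0.77 ± 0.35 (SD, n = 4), the only one of these 4 pairs in which both genes passed and each lay on its own side of 0 on every array. AARS minus AARS2 was 1.16, 1.19, 0.03 and 0.22, a mean of 0.65 ± 0.61 (SD, n = 4), and close to 0 on array 3. SARS minus SARS2 was 0.15, 0.58, 0.05 and 0.52, a mean of 0.32 ± 0.26 (SD, n = 4), with neither gene past the threshold. Each of the 4 pairs had p = 0.125 in the exact two-sided sign-flip permutation test, the smallest that 4 arrays allow, and an adjusted p of 0.438 over the 14 pairs, so no difference could pass. TARS minus TARS2 averaged 0.60 over the orientations but was -0.01, 1.11 and 1.29 on arrays 2 to 4. HARS minus HARS2 and FARSB minus FARS2 had the lowest means, -0.20 and -0.22, with arrays on both sides of 0. WARS and WARS2 rose both, and their difference was 0.43, 0.52, -0.28 and -0.16.

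**Figure D4:**
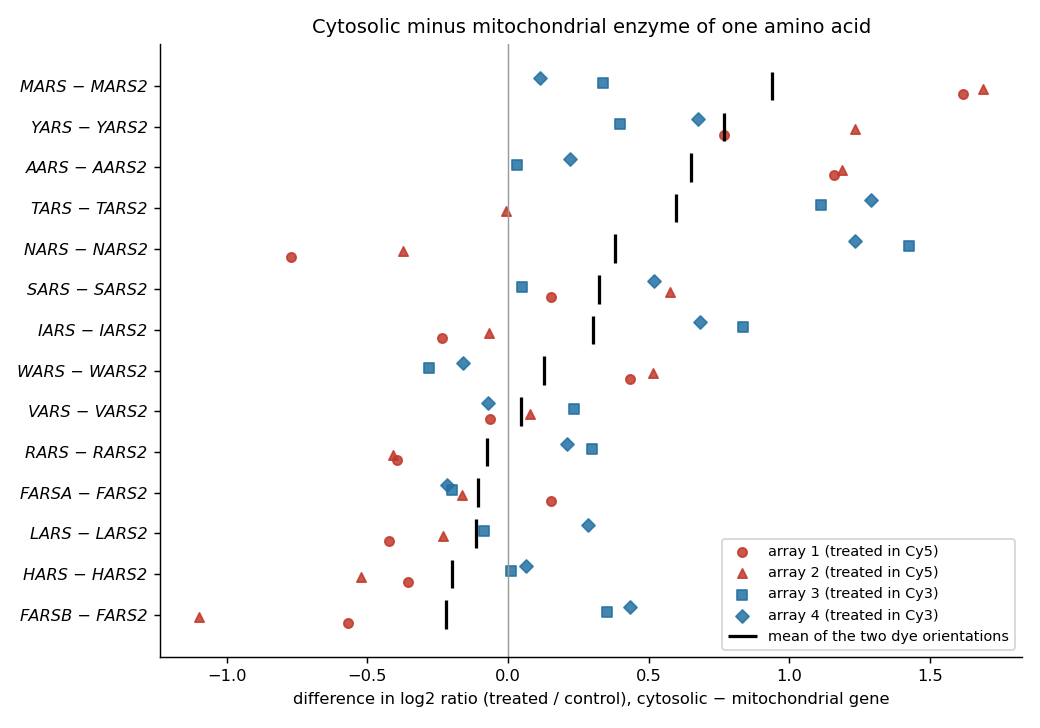
Difference in log2 ratio (treated over control) between the cytosolic and the mitochondrial gene of an amino acid (horizontal axis) for 14 pairs, with 1 point per array and a black bar for the mean of both dye orientations. The methionine, tyrosine, alanine and serine pairs have all 4 points above 0, and no pair has all points below 0; with median centring, only tyrosine of these 4 pairs kept all 4 points above 0.

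The C/EBP-ATF response element, a composite site known to bind ATF4 with C/EBP partners, was searched as TGATGNAA on both strands of RefSeq promoter windows on GRCh38.p14, from 250 bases before to 50 after a start. The table held windows for 30 of the 36 genes and several starts for some genes. The letters occurred in 3.62% of all 35093 windows, in 4.46% of all 27305 genes and in 8 of the 30 synthetase genes. The matches are printed here because 7 of the 8 genes were called higher. Each line is the gene's strand 5′ to 3′, 30 bases long, with the match in capitals.

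CARS: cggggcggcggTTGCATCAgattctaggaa
AARS: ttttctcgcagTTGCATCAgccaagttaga
TARS: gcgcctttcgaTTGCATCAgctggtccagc
MARS: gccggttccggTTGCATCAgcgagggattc
GARS: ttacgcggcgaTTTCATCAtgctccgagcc
NARS: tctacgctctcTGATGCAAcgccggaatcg
IARS: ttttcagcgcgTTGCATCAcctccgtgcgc
YARS2: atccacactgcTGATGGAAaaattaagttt

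These windows lie at chr11:3057407-3057436 (CARS, minus strand), chr16:70289675-70289704 (AARS, minus), chr5:33440956-33440985 (TARS, plus), chr12:57488053-57488082 (MARS, plus), chr7:30594834-30594863 (GARS, plus), chr18:57621804-57621833 (NARS, minus), chr9:92293692-92293721 (IARS, minus) and chr12:32756076-32756105 (YARS2, minus). In CARS, AARS, TARS, MARS and IARS the 8 letters were the same, TTGCATCA, which is TGATGCAA on the other strand, and NARS held TGATGCAA itself. GARS held TTTCATCA and YARS2 held TGATGGAA. The match was counted from the start whose window held it, with no base 0. It ran from -2 to 6 in CARS, from -4 to 4 in MARS, from 3 to 10 in TARS and from 15 to 22 in NARS. It ran from -13 to -6 in IARS and from -33 to -26 in GARS. In AARS and YARS2 it lay farther out, from -187 to -180 and from -197 to -190.

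Of the 9 cytosolic genes that rose and had a window, 7 held the match, EPRS and WARS being the others. A gene was counted if any of its windows held the match, and in CARS, TARS and GARS only 1 of 2 windows did. Of the 7 cytosolic genes with a window that did not pass, 0 held it. YARS, which rose, and DARS, LARS and VARS, which did not pass, had no window and could not be searched. The 7 genes with the match had log2 ratios from 0.21 to 0.81 with a median of 0.38, and the 9 without it from -0.16 to 0.47 with a median of -0.00. Among 14 mitochondrial genes with a window, CARS2 without a probe included, only YARS2 held it, and YARS2 fell. GARS, NARS and IARS are among the 7, and their arrays lay on both sides of 0. The ER stress response element, searched as CCAAT, 9 free bases and CCACG, and the antioxidant response element, searched as TGAC, 3 free bases and GCA, on both strands, occurred in 0.0769% and 3.19% of all windows and in 0 synthetase genes. A match is only a run of letters, and no binding was measured.

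Other genes of tRNA charging and use were described from lists by role. Of 41 tested, 4 rose and 5 fell, 9.76% and 12.2%, below the 24.3% and near the 13% of all probes, and the median log2 ratio was 0.02. Among scaffold proteins and relatives of the synthetases, SEPSECS, which makes selenocysteinyl-tRNA, rose at 0.25, 0.29, 0.62 and 0.72, fitted at 0.47 ± 0.24 (SD, n = 4; limma adjusted p = 0.00086), above 0 on every array. TARS3, a second threonyl-tRNA synthetase listed on the array under its older name TARSL2, measured -0.45, -0.49, -0.27 and -0.25 and fell by 0.37 on the log2 scale (SD 0.12, n = 4; limma adjusted p = 0.0026), opposite in sign to TARS. The complex scaffolds AIMP1, AIMP2 and EEF1E1 did not pass, at 0.12, 0.13 and -0.07.

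In tRNA maturation, XPOT, the exporter of tRNA from the nucleus, measured 0.69, 0.38, 0.03 and 0.36 and rose by a fitted 0.36 (limma adjusted p = 0.011), above 0 on all arrays. ELAC1 rose at 0.21 (limma adjusted p = 0.048). POP1, a subunit of RNase P, measured -0.49, -0.62, -0.69 and -0.81 and fell by 0.65 on the log2 scale (limma adjusted p = 0.00021). It lay below 0 on every array. Of 11 genes of elongation, 10 factors and the eEF2 kinase EEF2K, 2 mitochondrial factors passed, GFM2 at 0.39 and GFM1 at -0.29 (limma adjusted p = 0.0024 and 0.012).

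In the pathway that answers uncharged tRNA, the ATF4 transcript measured from 0.28 to 1.08, above 0 on all 4 arrays, and rose by a fitted 0.72 ± 0.38 (SD, n = 4; limma adjusted p = 0.00016). EIF2AK4, the kinase GCN2 that senses uncharged tRNA, fitted at 0.22 (limma adjusted p = 0.030), with -0.20 and -0.25 on the Cy5 arrays and 0.59 and 0.74 on the Cy3 arrays. The other 3 genes of that list, GCN1, IMPACT and EIF2S1, did not pass, at -0.01, 0.09 and -0.16. Of 14 known ATF4 targets outside translation that were tested, 12 rose (85.7%, where 24.3% of all probes did), with a median log2 ratio of 0.56 beside 0.20 for the cytosolic synthetases. This list, too, was drawn up with earlier results of these data known. ASNS, asparagine synthetase, was too dim to be tested.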

How the data were processed

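Total RNA of control K562 cells and of cells given AC-1041 was amplified, labelled with Cy3 or Cy5 and hybridised in pairs to 4 Agilent arrays. The authors deposited the spot and background intensity of both channels of each scan from Agilent Feature Extraction 9.5.1.1, without normalization, beside processed intensity values and their log10 ratios, and a series table of log10 ratios. From 99.89% to 100% of the values of the series table per array lay within 0.001 of those ratios, once the sign was turned for the swapped arrays 3 and 4; their median was 0 on each array.

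Intensities were corrected with normexp (offset 50) and normalized by loess within each array (span 0.3). Control spots and spots marked as outliers, 1.57% to 8.08% of probes, were left out. No spot was saturated. Probes were tested where 1 channel or both stood well above background on 2 or more arrays. Log2 ratios were fitted in limma 3.58.1 (R 4.3.3) with terms for treatment and dye, and p-values were adjusted by Benjamini-Hochberg over 8852 probes. Pair differences were tested by an exact sign-flip permutation test. All 4 arrays shared a slide and a scan date. The number of arrays limits the precision.

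Of 14297 probes, 12002 were named through RefSeq accessions, and the others, with CARS and EARS2 among them, kept the name in the files. The 35 synthetase probes were 60 bases long, and 11 of them spanned more of hg18 than their length. Promoter windows came from RefSeq (GRCh38.p14) and were used for sequence only.

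The members, lists and motifs were chosen with earlier results of these data known. Values on every array are given for members past the threshold and for their partners in pairs, and for up to 5 genes of each other list. Some genes of these other lists are not reported here. The fit was tested on simulated data. Alternatives were no background subtraction, the series table, processed signals, centring on the median, other filters, outlier spots kept, an adjusted p of 0.01, no dye term and each array left out in turn.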

Additional observations from a re-analysis of the deposited data

Results flagged for a closer look

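In 3 of the 32 synthetase genes measured on all 4 arrays, the gap between 1 array and the nearest other, as a share of the whole range, passed Dixon's 95% critical value for 4 values, which chance passes in about 1 group in 20. For MARS the share was 0.851, array 2 being high at 0.67 with the others from 0.24 to 0.31, and the fitted log2 ratio without that array was 0.29. For SARS2 the share was 0.951, array 4 being low at -0.43 with the others from -0.03 to -0.01, so the negative value of SARS2 rests mostly on that array. For RARS2, the mitochondrial enzyme for arginine, the share was 0.864, array 2 being low at -0.07 with the others from 0.05 to 0.07, a range small beside that of other members.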

How the results depend on the processing

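Of the 14 synthetase genes past the threshold, all kept their direction under each alternative in which they were fitted, and 14 passed with no background subtraction and with no filter on dim probes. Without the dye term 0 cytosolic genes were higher, 0 mitochondrial genes higher and 0 lower, other genes of tRNA charging counted 0 higher and 0 lower, all probes 52 higher and 4 lower, and the mitochondrial median was -0.066. On processed signals, and likewise on the series table, 9 of the 14 passed, GARS, IARS, YARS, HARS2 and MARS2 did not on the former, 1 mitochondrial gene was higher, NARS2 took the place of MARS2 among the 2 lower, and AARS2 turned to -0.0493 and -0.0492. With median centring 12 of 14 passed, NARS and IARS did not, TARS2 turned to 0.022 and VARS minus VARS2 to -0.033, 3 other tRNA genes were lower, and 596 of all probes were lower and 2364 higher, 79.9% of calls being higher beside 65.2% (1152 lower and 2155 higher). With outlier spots kept 11 of 14 passed. Where both channels had to be above background on all arrays, MARS2 left the test, 1 mitochondrial gene was lower and 2 other tRNA genes were higher. This filter left 5587 probes to be tested, of which 1342 were higher, beside 2155 of 8852 in the main fit. At an adjusted p of 0.01, 0 mitochondrial genes were higher, other tRNA genes counted 2 higher and 3 lower, and all probes 1353 higher and 468 lower. The cause of these changes was not tested.

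Leaving out 1 array at a time gave 3 to 9 cytosolic genes higher and 0 to 1 lower, 0 to 2 mitochondrial genes higher and 1 to 3 lower, 2 to 7 other tRNA genes higher and 3 to 6 lower, and for all probes 1008 to 2590 higher and 283 to 1469 lower. The 3 cytosolic genes were those without array 4, and without array 3 there were 5; TARS could be fitted only without array 1. HARS ranged from -0.0024 to 0.077, AARS2 from -0.00052 to 0.024, RARS minus RARS2 from -0.20 to 0.038, FARSB minus FARS2 from -0.44 to 0.072, WARS minus WARS2 from -0.0027 to 0.26, and VARS minus VARS2 from -0.019 to 0.083. No separate paired analysis was run because each log2 ratio already compares both groups on the same array. A mean over several probes was not run since each gene had 1 probe, and slide and scan date could not be fitted since all arrays share them. MARS2 was not well above background in every channel, and the effect of the wider background of arrays 1 and 2 was not tested.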
